A study of Mus musculus with 100 samples.

Results

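Cyp2f2, Mogat2, Pnpla5, Nabp1, Shisa6 and Zfp949 are 6 of the 32153 genes to which the Ensembl transcript rows of the deposited tables could be mapped. They were selected on their measured difference between genotypes: each had higher values in libraries labelled Gps2 knockout than in wild type, either in fat of mice on the shorter high fat diet or both in fat of mice on chow and in inguinal fat of the beta-adrenergic series. In those 3 tables their differences are therefore a description and were not tested. The 2 remaining tables, of fat tissue and of adipocytes after the longer diet, were not used in picking them, and there the genes were tested.

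Messenger RNA was sequenced from mouse fat in which floxed Gps2 alleles (Gps2flox/flox) are deleted by Adipoq-Cre, a recombinase under the adiponectin promoter, and from wild-type counterparts. The strain label is the same for both genotypes, and only the titles tell them apart. The CD table holds intra-abdominal fat on chow at 19 weeks of age (3 samples labelled knockout, 3 wild type). The HFD table holds intra-abdominal fat at 11 weeks (4 and 4), with 4 weeks of high fat diet in its name. The BA table holds beta-adrenergic samples of inguinal fat, aged 8 weeks in both genotypes (4 and 4). The Epi table holds intra-abdominal fat (3 and 3) and the Adipo table intra-abdominal adipocytes (2 and 3), both at 19 weeks, where the table names give a diet of 12 weeks. Whether the samples of a group are separate mice is not stated, and p-values below reflect sample-to-sample spread only, which could be technical.

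GPS2 belongs to the corepressor complex built around NCoR and SMRT, which holds down transcription of genes to which nuclear receptors and other factors recruit it. The 6 genes belong to no single pathway. Mogat2 encodes a monoacylglycerol acyltransferase, known from the intestine, where it rebuilds diacylglycerol on the way to triglyceride, and Pnpla5 encodes a member of the patatin-like phospholipase family, to which the main triglyceride lipase of adipocytes also belongs. Cyp2f2 is a cytochrome P450 best known from the club cells of the mouse airway, where it oxidises naphthalene. Nabp1 encodes a single-stranded DNA binding protein of the SOSS complex of DNA repair. Shisa6 encodes a membrane protein that binds AMPA-type glutamate receptors in the brain, and Zfp949 a zinc finger protein.

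The stretch before the transcription start is shown for the 4 genes that have a RefSeq promoter entry, because a corepressor acts through factors bound near its target genes. These are the 250 bases before the start on GRCm38.p6, at chr7:27119705-27119954 (plus strand) for Cyp2f2, chr15:84123176-84123425 (minus strand) for Pnpla5, chr1:51478400-51478649 (minus strand) for Nabp1 and chr9:88547770-88548019 (plus strand) for Zfp949, each written along its gene. The RefSeq start lies inside the transcript used below for Cyp2f2 and Nabp1, so that 46 and 26 bases of their windows belong to it. Mogat2 and Shisa6 are named only. Capitals mark AGGTCA, the core of nuclear receptor elements, the palindromic E-box CACGTG and the CCAAT box, each on either strand.
Cyp2f2: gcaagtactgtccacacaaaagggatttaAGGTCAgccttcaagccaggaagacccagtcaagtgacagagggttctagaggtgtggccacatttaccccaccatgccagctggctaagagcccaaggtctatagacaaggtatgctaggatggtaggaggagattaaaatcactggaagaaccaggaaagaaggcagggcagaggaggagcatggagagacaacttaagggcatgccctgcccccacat
Pnpla5: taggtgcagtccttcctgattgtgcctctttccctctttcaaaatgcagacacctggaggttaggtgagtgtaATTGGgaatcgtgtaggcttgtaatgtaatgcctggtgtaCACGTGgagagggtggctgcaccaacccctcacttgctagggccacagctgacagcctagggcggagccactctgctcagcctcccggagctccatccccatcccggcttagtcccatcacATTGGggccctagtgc
Nabp1: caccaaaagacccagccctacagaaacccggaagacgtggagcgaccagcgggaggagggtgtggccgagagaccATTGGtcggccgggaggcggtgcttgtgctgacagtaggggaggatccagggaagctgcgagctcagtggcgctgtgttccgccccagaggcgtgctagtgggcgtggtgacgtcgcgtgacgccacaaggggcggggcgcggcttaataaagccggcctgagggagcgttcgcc
Zfp949: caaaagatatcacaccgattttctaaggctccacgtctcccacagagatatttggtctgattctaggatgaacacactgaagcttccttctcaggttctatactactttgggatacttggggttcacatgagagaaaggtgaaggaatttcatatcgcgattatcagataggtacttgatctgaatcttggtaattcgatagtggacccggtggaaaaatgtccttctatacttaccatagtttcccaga

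The 4 stretches shared none of the 9 motifs searched on both strands. AGGTCA lay in 1 of the 4, that of Cyp2f2, 221 bases before the RefSeq start, and was found in 14.0% of all 32851 RefSeq promoter stretches of that length. CACGTG lay in that of Pnpla5 and in 6.02% of all. CCAAT lay in those of Pnpla5 and Nabp1 and in 33.8% of all, and the GC box GGGCGG in the same pair and in 32.7%. The sterol response element TCACNCCAC, a direct repeat of AGGTCA with any 1 base between the copies, the cAMP response element TGACGTCA, the AP-1 site TGANTCA and TATAAA were found in none of the 4, against 1.05%, 0.0335%, 1.55%, 6.75% and 12.4% of all promoters. GC content was 51.6% for Cyp2f2, 56.4% for Pnpla5, 66.4% for Nabp1 and 41.2% for Zfp949, with a median of 52.4% over all promoters. A match is no proof of binding, and the windows are short.

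Several properties of the libraries touch the values below. Each replicate of CD, HFD and BA had 4 libraries that differed by little more than sampling noise and were averaged as 1 sample, and recovered reads per sample ranged from 29342792 to 63232066 over all tables. The CD libraries labelled knockout 1 and 2 were nearly alike (a chi-square of 2.88 per degree of freedom; the other CD pairs within a genotype had 60.4 to 324). They carried epididymis and testis markers with summed levels of 162024 and 149622 normalised reads, and CD wild type 2 with 43707, against 3.71 to 48.8 in the other 3. Of the 8 markers, 5 stood at 50 or more in each of those labelled knockout samples, but only 1 did in wild type 2. In Epi the libraries labelled knockout 2 and 3 carried the same markers at 79005 and 25101, against 0 in that labelled knockout 1 and 2.64 to 27.3 in wild type. The library labelled Epi knockout 1 had 18016 genes with a read, against 21618 to 23620 in the other Epi samples. Full-length Gps2 was as high in labelled knockout as in wild type in every table, with log2 fold changes from 0.0052 to 0.15. Which exons are removed is not stated, so that level checks nothing and the genotype is that of the label throughout. All 8 adipocyte markers (such as Adipoq and Plin1) stood at 50 or more in every group, a floor far below their levels. Their sum was 238961 in CD wild type 2, against 586441 to 937413 in the other CD samples. That sample was also the lowest CD wild type for Mogat2, Cyp2f2, Nabp1 and Zfp949, though not for Pnpla5 or Shisa6. The part of its adipocyte content in those values was not tested. In tissue, fewer cells of a type and less RNA per cell cannot be told apart.

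In chow fat (CD), every sample labelled knockout lay above every wild-type sample for all 6 genes. Of the 15467 genes tested 12.4% did so, and since the picking used this table nothing is read from the count. Values are normalised reads, that is, reads divided by a size factor per library, and each fold change is a difference of log2(value + 1) with its SE. The nearly alike samples labelled knockout 1 and 2 count as separate samples, so each SE and SD of CD may be too small.

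The lipid enzymes stood several-fold apart in CD. Mogat2 had 231, 265 and 351 normalised reads in samples labelled knockout 1, 2 and 3, against 69.1, 26.4 and 57.6 in wild type 1, 2 and 3 (log2 fold change 2.53 ± 0.40). Pnpla5 had 31.3, 28.3 and 106 normalised reads in the labelled knockout samples, against 1.10, 3.38 and 7.34 in wild type (3.45 ± 0.80). The wild-type values of Pnpla5 rest on 5, 17 and 30 reads, and the gene passed the filter on low values through the knockout samples. The P450 gene Cyp2f2 had 1898, 1988 and 4818 normalised reads in labelled knockout, against 257, 159 and 1039 in wild type (2.91 ± 0.76). Nabp1 had 1332, 1201 and 1756 in labelled knockout, against 572, 344 and 435 in wild type (1.68 ± 0.24).

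Shisa6 was lowest in level of the 6 per transcript length in CD. It had 59.7, 43.4 and 82.5 normalised reads in labelled knockout, against 11.0, 12.6 and 17.8 in wild type (log2 fold change 2.07 ± 0.38). Zfp949 had 558, 576 and 839.9 in labelled knockout, against 180.1, 163 and 222 in wild type (1.79 ± 0.22). The library labelled knockout 3, which lacked the epididymis markers, had the highest value of all 6 genes. An alternative chosen after seeing the data left out labelled knockout 1 and 2 and wild type 2, the last with only 1 of those markers at 50 or more. It leaves 1 sample labelled knockout and 2 wild types. The log2 fold changes were then 4.67 for Pnpla5 and 2.48 for Shisa6, and those of the other 4 moved by less than the spread within groups. In CD 3 other marker lists also stood apart by their sum. Mast cell markers summed to 393 to 621 in labelled knockout and 841 to 1023 in wild type, fibroblast and progenitor markers to 9833 to 10532 and 11410 to 15892, and skeletal muscle markers to 91.2 to 212 and 292 to 7724, in the same order of groups. The part of these markers in the values was not tested.

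**Figure D1:**
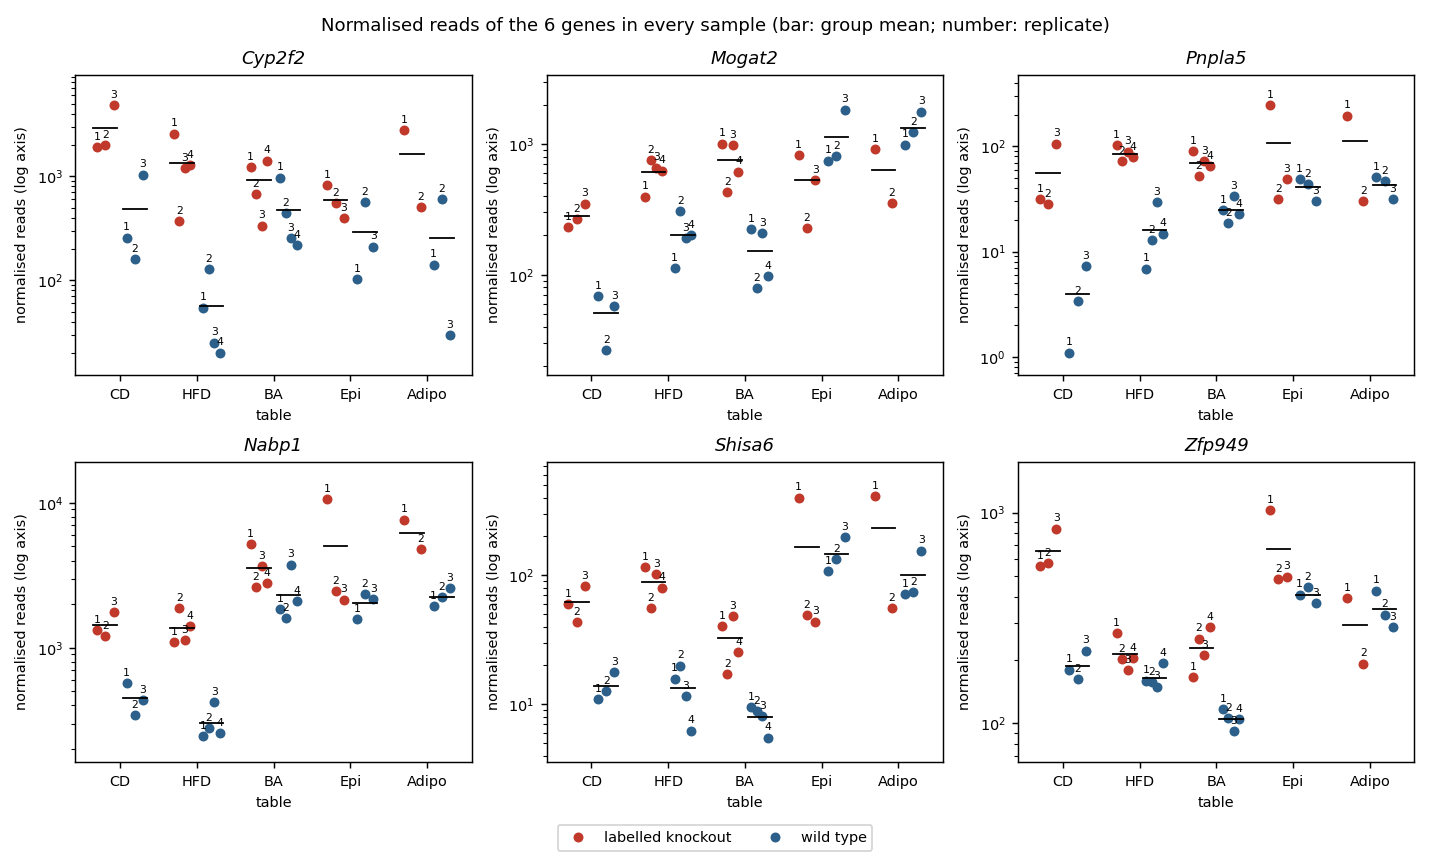
Normalised reads (log axis) of each gene in every sample of the 5 tables, labelled knockout in red left of wild type in blue, with the group mean as a bar and the replicate number above each point. The groups stand apart for all 6 genes in CD, while in Epi and Adipo Pnpla5 reaches 244 and 195 normalised reads in the samples labelled knockout 1 and at most 50.6 in all others.

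On the shorter high fat diet (HFD), the groups stood apart for 5 of the 6 genes, with Zfp949 the exception, and for 4.03% of the 13946 genes tested. As the picking used this table too, nothing is read from the count.

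Cyp2f2 showed the widest gap. It had 2572, 374, 1188 and 1276 normalised reads in samples labelled knockout 1 to 4, against 54.6, 129, 25.1 and 20.1 in wild type 1 to 4 (log2 fold change 4.62 ± 0.66), second of 13946 genes by fold change. The sample labelled knockout 2 was the lowest of its group for Cyp2f2, Pnpla5 and Shisa6, yet the highest for Mogat2 and Nabp1. Mogat2 had 396, 749, 659 and 627 in labelled knockout, against 113, 309, 189 and 200.2 in wild type (1.63 ± 0.29). Pnpla5 had 102, 71.7, 88.9 and 78.7 in labelled knockout, against 6.89, 12.8, 29.4 and 14.8 in wild type (2.50 ± 0.36).

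Nabp1 had 1097, 1867, 1132 and 1406 normalised reads in labelled knockout, against 245, 278, 425 and 258 in wild type (log2 fold change 2.19 ± 0.21). Shisa6 had 115, 55.8, 102 and 80.2 in labelled knockout, against 15.8, 20.0, 11.5 and 6.27 in wild type (2.69 ± 0.35). Zfp949 had 267, 202, 179.5 and 204 in labelled knockout, against 159.8, 157, 149.5 and 194 in wild type (0.36 ± 0.14), and its groups overlapped because the wild-type sample 4 lay above the labelled knockout sample 3.

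In inguinal fat of the beta-adrenergic series (BA), the groups stood apart for Mogat2, Pnpla5, Shisa6 and Zfp949 and overlapped for Cyp2f2 and Nabp1. Of the 12377 genes tested 3.26% stood apart in that direction, and the picking used this table as well.

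Mogat2 had 1008, 428, 979 and 614 normalised reads in samples labelled knockout 1 to 4, against 223, 78.8, 209 and 97.6 in wild type 1 to 4 (log2 fold change 2.37 ± 0.38). Pnpla5 had 89.9, 51.9, 72.4 and 64.4 in labelled knockout, against 24.8, 18.5, 33.6 and 22.7 in wild type (1.45 ± 0.23). Shisa6 had 40.2, 17.2, 48.2 and 25.3 in labelled knockout, against 9.49, 8.85, 8.07 and 5.52 in wild type (1.83 ± 0.33). Its wild-type values rest on 44, 40, 32 and 16 reads, so that Shisa6 passed the filter in BA through the knockout samples. Zfp949 had 166, 252, 211 and 286 in labelled knockout, against 117, 106, 92.4 and 105 in wild type (1.09 ± 0.17).

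Cyp2f2 had 1215, 678, 336 and 1413 normalised reads in labelled knockout, against 970.0, 439, 253 and 217 in wild type (log2 fold change 1.01 ± 0.53). Nabp1 had 5172, 2626, 3646 and 2784 in labelled knockout, against 1844, 1602, 3743 and 2089 in wild type (0.64 ± 0.29), where wild type 3 reached the second-highest value of all 8 samples. In BA the summed level of 5 T cell markers was 261 to 452 in labelled knockout and 73.4 to 135 in wild type, and that of the adipocyte markers 429742 to 650575 and 366267 to 430991. Their part in the values of the 6 genes was not tested.

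**Figure D2:**
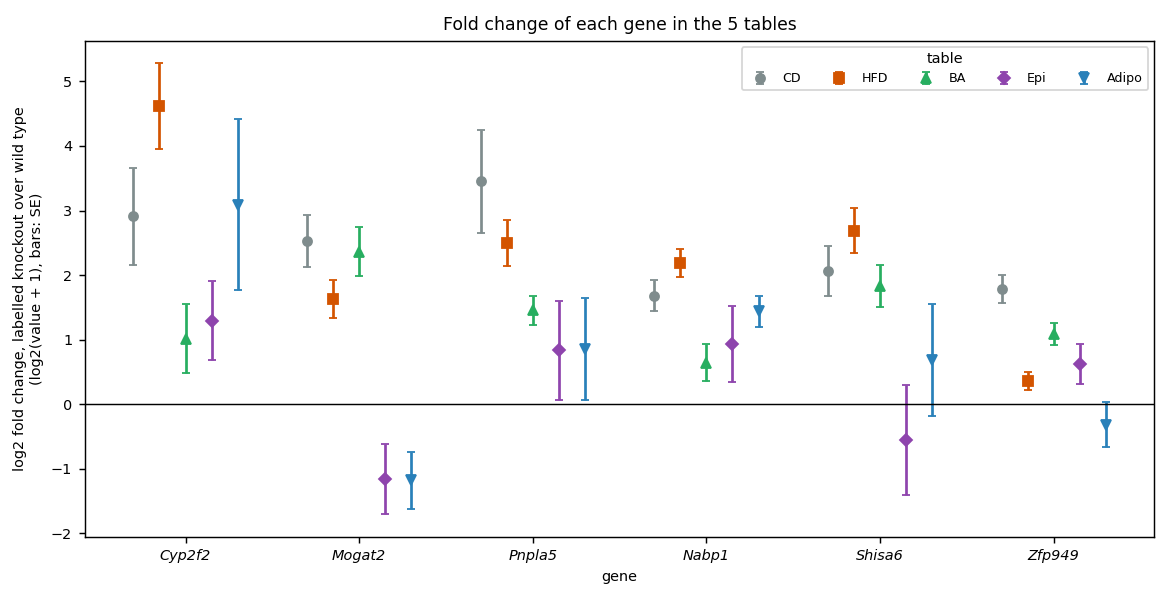
Log2 fold change of each gene, labelled knockout over wild type, in the 5 tables (symbols), on the log2(value + 1) scale with the SE as bars. All points of CD, HFD and BA lie above 0, while Mogat2 lies at -1.16 in Epi and -1.18 in Adipo.

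In the tables that did not enter the picking, none of the 6 genes passed limma with Benjamini-Hochberg adjustment over all genes at 0.05. In Epi 0 of 17513 genes (0% called) passed, with 1613 at an unadjusted p under 0.05, 0 called by edgeR and 530 by DESeq2. In Adipo 90 of 14105 genes passed (0.638% called, with 77 or 0.546% higher and 13 or 0.0922% lower). The log2 fold changes of Cyp2f2, Pnpla5 and Nabp1 were above 0 in both tables and those of Mogat2 below 0, while those of Shisa6 and Zfp949 differed in sign. For Shisa6 in Epi the sign depends on the scale, since the mean of the values was 164 in labelled knockout and 146 in wild type.

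Mogat2 lay on the other side from CD, HFD and BA. In Epi it had 825, 227 and 529 normalised reads in samples labelled knockout 1, 2 and 3, against 748, 812 and 1832 in wild type 1, 2 and 3 (log2 fold change -1.16 ± 0.54, limma adjusted p = 0.566). In Adipo it had 919 and 354 in samples labelled knockout 1 and 2, against 989, 1236 and 1767 in wild type (-1.18 ± 0.44, limma adjusted p = 0.184). Leaving out 1 sample gave -1.58 (without labelled knockout 1) to -0.65 (without labelled knockout 2) in Epi, and -1.87 to -0.49 without the same samples in Adipo. Without wild type 3 it was -0.75 in Epi. In Adipo both labelled knockout samples lay below every wild-type sample, as did those of 27.3% of the genes tested. Wild-type Mogat2 was also higher in these tables, at 13.9 ± 7.81 RPKM (reads per kilobase of transcript, scaled to library size) in Epi and 18.9 ± 6.33 RPKM in Adipo (SD, n = 3 each), beside 2.34 ± 0.942 RPKM in CD (n = 3), 7.72 ± 3.26 in HFD and 6.48 ± 3.28 in BA (n = 4 each), in tables normalised separately.

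Nabp1 had the smallest adjusted p of the 6. In Adipo it had 7667 and 4798 normalised reads in labelled knockout, against 1938, 2247 and 2583 in wild type (log2 fold change 1.44 ± 0.24, limma adjusted p = 0.0666). Its groups stood apart, as they did in that direction for 20.8% of the 14105 genes tested. The adjusted p was 0.0475 with edgeR and 6.34e-07 with DESeq2 on the recovered reads, 0.0205 without a filter on low values and 0.038 without wild type 3, and up to 0.338 over the other alternatives. In Epi the sample labelled knockout 1 had 10616 normalised reads and those labelled knockout 2 and 3 had 2460.3 and 2149.8, against 1577, 2352 and 2175 in wild type (0.93 ± 0.59, limma adjusted p = 0.656).

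Pnpla5 and Shisa6 repeated that split between samples of 1 group. In Epi, Pnpla5 had 244, 31.3 and 48.9 normalised reads in samples labelled knockout 1, 2 and 3, against 49.1, 43.9 and 30.0 in wild type (log2 fold change 0.83 ± 0.77, limma adjusted p = 0.761). In Adipo it had 195 and 30.2 in labelled knockout, against 50.6, 46.9 and 31.7 in wild type (0.85 ± 0.79, limma adjusted p = 0.532). Shisa6 had 400.4, 49.4 and 43.8 in labelled knockout in Epi, against 107, 133 and 197 in wild type (-0.56 ± 0.85, limma adjusted p = 0.866). In Adipo Shisa6 had 408 and 55.9 in labelled knockout, against 71.9, 74.1 and 156 in wild type (0.68 ± 0.86, limma adjusted p = 0.652). Without the sample labelled knockout 1, Pnpla5 was -0.036 in Epi and -0.47 in Adipo, and Shisa6 was -1.59 and -0.74.

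Cyp2f2 had 818, 555 and 396 normalised reads in labelled knockout in Epi, against 103, 562 and 211 in wild type (log2 fold change 1.29 ± 0.61, limma adjusted p = 0.575). In Adipo it had 2758 and 501 in labelled knockout, against 142, 599.8 and 29.7 in wild type (3.09 ± 1.33, limma adjusted p = 0.221), and without the sample labelled knockout 1 the log2 fold change was 1.86. Zfp949 had 1030.0, 482 and 497 in labelled knockout in Epi, against 408, 443 and 373 in wild type (0.62 ± 0.31, limma adjusted p = 0.582). It was the only 1 of the 6 whose Epi groups stood apart, as they did for 7.29% of the 17513 genes tested. In Adipo Zfp949 had 394 and 192 in labelled knockout, against 427, 329 and 287 in wild type (-0.31 ± 0.35, limma adjusted p = 0.604).

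Sample by sample, the 11 samples labelled knockout in CD, HFD and BA held 4 to 6 of the 6 genes above every wild-type sample of their table. Those samples lay above every wild-type sample for 10.4% to 34.9% of all genes tested. The picking used these tables, so nothing is read from that count. The sample labelled Epi knockout 1 held 5 above, all but Mogat2, and that labelled Adipo knockout 1 held 4 above, namely Cyp2f2, Pnpla5, Nabp1 and Shisa6, with Mogat2 below. By contrast the samples labelled Epi knockout 2 and 3 held 2 and 1 above, and that labelled Adipo knockout 2 held 1, Nabp1. Below every wild-type sample were Mogat2 and Shisa6 in Epi knockout 2 and 3 (no gene of the 6 was so in all Epi samples labelled knockout, as 9.16% of the tested genes were), and Mogat2, Pnpla5, Shisa6 and Zfp949 in Adipo knockout 2. The share of all genes below every wild-type sample was not computed for single samples, so nothing is read from these counts. Over all genes tested, each of these Epi and Adipo samples lay above every wild-type sample for 24.3% to 31.1% of genes, with 26.2% in Epi knockout 1 and 31.1% in Adipo knockout 1.

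The same samples differed in a readout that did not enter the picking. A short Gps2 transcript held, relative to the full-length one taken as 100%, 38.5%, 50.3% and 49.9% of its reads in samples labelled Epi knockout 1, 2 and 3, against 42.3%, 49.3% and 47.5% in wild type. The share was 31.3% and 47.9% in samples labelled Adipo knockout 1 and 2, against 49.9%, 45.5% and 50.9% in wild type. In BA the shares were 29.7% to 35.4% in labelled knockout and 41.7% to 47.3% in wild type. In CD they were 29.5% to 39.8% in labelled knockout and 40.3% to 46.4% in wild type, and in HFD 34.6% to 36.6% in labelled knockout and 35.5% to 44.7% in wild type. That share was chosen after its values were seen, and whether it reads the deletion was not tested. In that share the samples labelled Epi knockout 2 and 3 and Adipo knockout 2 lay within or above the wild-type range of their table. The sample labelled HFD knockout 3 also lay within its wild-type range, at 36.6%, although it held 5 of the 6 genes above every wild-type sample. Whether the labels of those Epi and Adipo samples are right cannot be told from the files, and every Epi and Adipo fold change rests on those labels.

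Epi and Adipo samples of the same number deviated together from their group means over 11749 genes, with a correlation of 0.276 in labelled knockout, where 2 samples mirror each other, and of 0.426, 0.503 and 0.699 in wild type 1, 2 and 3. The 2 tables are therefore not taken as separate evidence for samples of any number. Samples of unlike number were not compared, and whether equal numbers stand for the same mice is not given. The library labelled Epi knockout 1 also held fewer genes with a read than its table, as given above. Endothelial markers summed to 13768 to 31846 in labelled knockout in Adipo and 1873 to 3392 in wild type, all 5 of them at a mean of 50 or more in both groups. Mesothelial markers summed to 974 to 1489 in labelled knockout and 128 to 620.1 in wild type, and mast cell markers to 206 to 518 and 50.1 to 76.7 in the same order of groups. The part of these differences in the values was not tested.

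**Figure D3:**
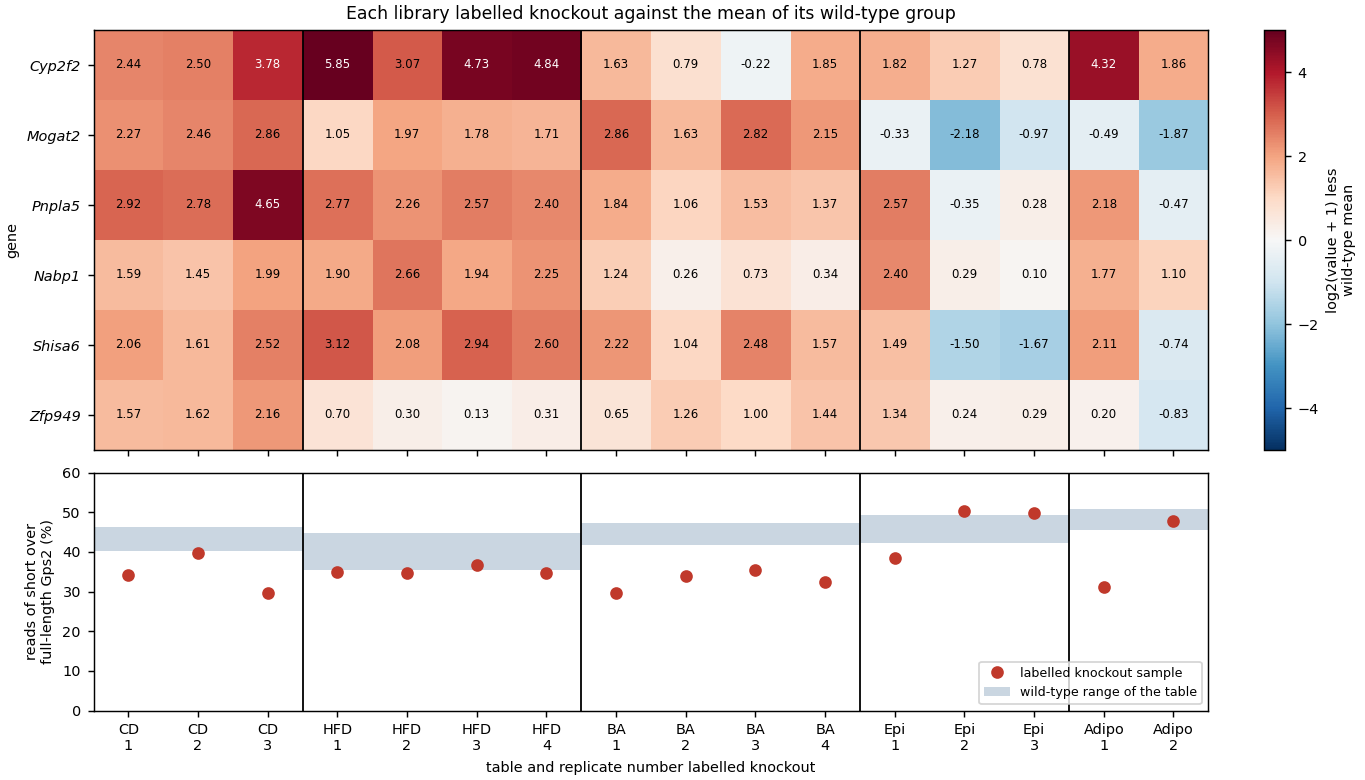
Each sample labelled knockout (columns) against the mean of its wild-type group, as a difference of log2(value + 1) for the 6 genes (upper panel, number and colour), above the short share of Gps2 in percent (lower panel, red points; blue band, range of the wild-type samples of the table). Samples labelled Epi knockout 1 and Adipo knockout 1 differ from the others of their groups in both panels, with Pnpla5 at 2.57 and 2.18 there and at -0.35, 0.28 and -0.47 in the others.

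Levels per transcript length placed the 6 genes far apart. The order of the wild-type means ran Cyp2f2, Nabp1, Zfp949, Mogat2, Pnpla5 and Shisa6 in CD, at 20.2 ± 18.4, 13.1 ± 3.31, 4.42 ± 0.252, 2.34 ± 0.942, 0.185 ± 0.131 and 0.156 ± 0.0267 RPKM (SD, n = 3). The first pair and the last pair of that order did not differ beyond their spread. In samples labelled knockout in CD the same order held for Cyp2f2 at 104 ± 52.5 and Nabp1 at 34.4 ± 4.69, followed by Zfp949 at 12.9 ± 2.22, Mogat2 at 10.8 ± 1.68, Pnpla5 at 2.16 ± 1.61 and Shisa6 at 0.58 ± 0.151 (SD, n = 3). The mean of Cyp2f2 in CD stood at percentile 95.3 of the tested genes in labelled knockout and 75.9 in wild type, and that of Shisa6 at 9.52 and 2.72 in the same order of groups. Nabp1 was highest of the 6 in wild type in BA, Epi and Adipo, at 61.2 ± 24.4 (n = 4), 15.5 ± 2.73 and 20.0 ± 3.57 RPKM (n = 3 each), within the spread of Mogat2 in Epi and Adipo.

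Markers of cells in which these genes are best known were summed as a check. Of 4 club cell markers in the tables none reached 50 normalised reads in any group, and their summed level was at most 15.6 in any sample and 0 in every Adipo sample, while Cyp2f2 reached 4818 in CD and 2758 in Adipo. Of 4 enterocyte markers, the intestinal epithelium being the tissue where Mogat2 is best known, none had a group mean of 50 in CD, HFD, BA or Adipo, although 1 reached 50 in HFD wild type 1, where their sum was 151. In Adipo the sum was 9.76 to 26.6 in labelled knockout and 1.04 to 3.37 in wild type. In Epi 1 marker had a mean of 50 or more in each genotype, and the sum was 80.9 to 1309.98 in labelled knockout and 39.9 to 209.7 in wild type. Hepatocyte markers were high in single samples of both genotypes, up to 12050 in labelled knockout and 14404 in wild type in Epi, where Cyp2f2 stood at 396 and 211. In HFD they were highest in wild type 2 at 6607, which also had the highest Cyp2f2 of the HFD wild types, 129. The part of such cells in the levels of Cyp2f2 and Mogat2 was not tested.

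**Figure D4:**
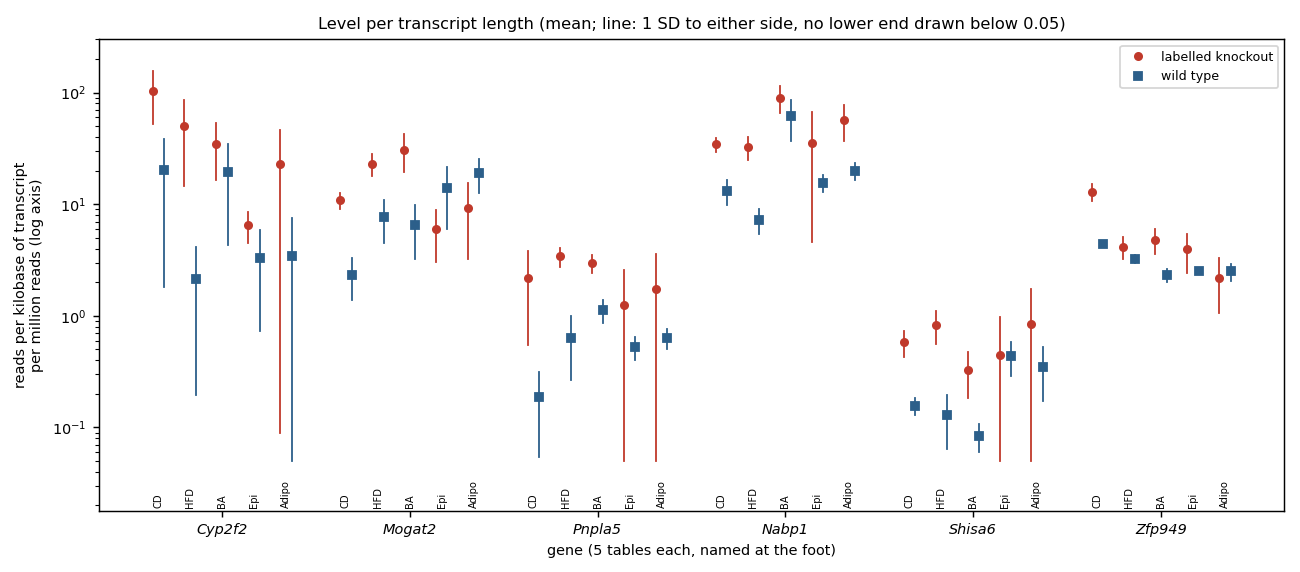
Level of each gene per transcript length (RPKM, log axis) in the 5 tables, with labelled knockout as red circles left of wild type as blue squares and lines of 1 SD to either side. Shisa6 and Pnpla5 lie lowest in every group, and the highest mean is that of Cyp2f2 in CD labelled knockout, 104.

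The isoforms of Zfp949 cover different parts of the gene. The transcript used above, Zfp949-204 on chromosome 9 from 88548020 to 88571061 (GRCm38, plus strand), has 70.5% of its 3472 bases in its last exon (88568614 to 88571061). Zfp949-203 shares that exon, while Zfp949-201, Zfp949-202 and Zfp949-205 end before it. In CD the retained-intron transcript Zfp949-205 averaged 140.5 ± 23.9 normalised reads in labelled knockout and 71.1 ± 4.95 in wild type, and Zfp949-203 averaged 652 ± 155 normalised reads in labelled knockout and 180.0 ± 31.4 in wild type (SD, n = 3 each). Zfp949-202, whose 3 exons end at 88554539, averaged 48.7 ± 4.38 in labelled knockout and 43.2 ± 1.51 in wild type. As a share of Zfp949-204, the reads of Zfp949-202 were 7.62 ± 1.56% in labelled knockout and 23.4 ± 4.19% in wild type.

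The share has Zfp949-204 as its denominator, on whose signal the gene was picked, so nothing is read from it in CD, BA and HFD. In BA the share of Zfp949-202 was 15.2 ± 2.90% in labelled knockout and 24.9 ± 2.01% in wild type, and in HFD it was 20.8 ± 1.40% and 29.6 ± 4.22% (SD, n = 4 each, labelled knockout first in both). In Epi it was 25.3 ± 6.86% in labelled knockout and 27.02 ± 0.377% in wild type (n = 3 each), lowest at 17.4% in 1 sample, and in Adipo 33.6 ± 5.27% and 30.4 ± 1.61% (n = 2 and 3). A read can be listed under every isoform it overlaps, so these shares describe where reads lie and are not isoform amounts.

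**Figure D5:**
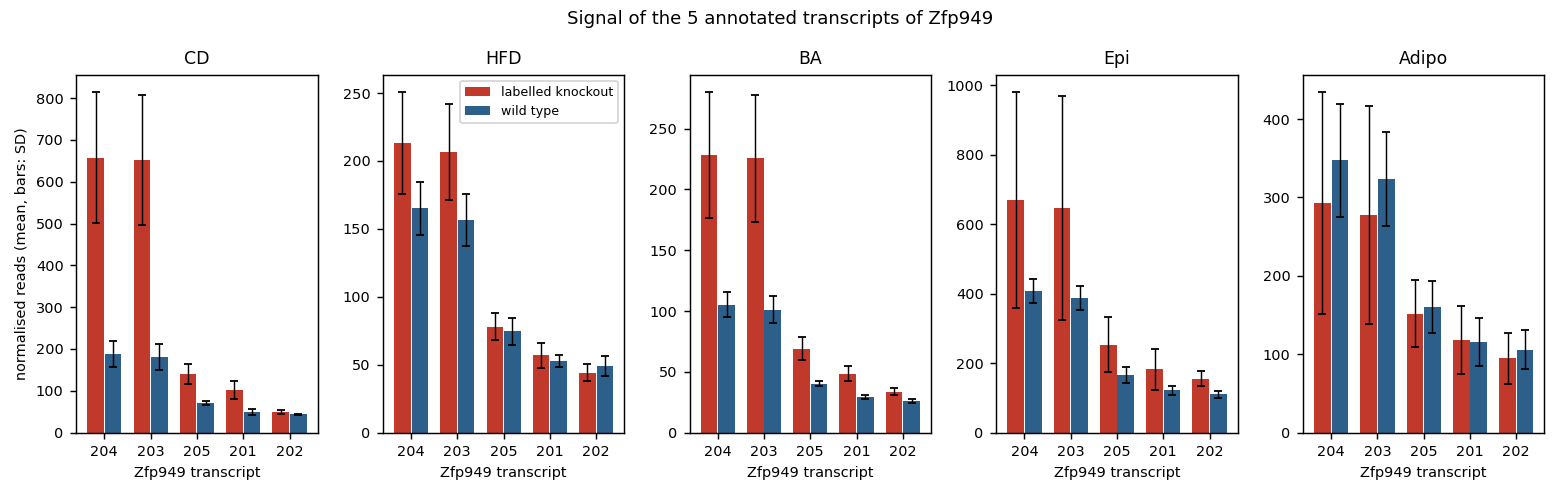
Mean normalised reads of the 5 annotated transcripts of Zfp949 in each table (bars from 0, SD as error bars), labelled knockout in red left of wild type in blue. Transcripts 204 and 203, which hold the last exon, show the widest gap in CD, 201 and 205 a smaller one, and 202 stands at 48.7 in labelled knockout and 43.2 in wild type.

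For Nabp1 the isoform with the highest mean signal over all groups was Nabp1-209, annotated as a target of nonsense-mediated decay, which is longer (4790 bases) than the protein-coding transcript used above (2838 bases). Its reads came to 198 ± 14.7% of those of that transcript in labelled knockout and 144 ± 32.0% in wild type in HFD (SD, n = 4 each). In BA the percentages were 279 ± 14.8% in labelled knockout and 249 ± 24.4% in wild type (n = 4 each), and in CD 131 ± 19.0% and 109.8 ± 7.004% (n = 3 each). In Adipo they were 159 ± 6.63% in labelled knockout and 166 ± 7.91% in wild type (n = 2 and 3). For Mogat2 the second annotated transcript held 6.48% to 15.1% of the signal of the first, and Pnpla5 had 1. Exons of another gene, the antisense Gm15883, covered 14.7% of the Cyp2f2 transcript, and the sources do not say if reads were counted by strand; the other 5 transcripts overlapped no exon of another gene.

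Few of the 3 nearest protein-coding genes on either side of each member passed. Of the 24 tested in HFD, where 484 of 13946 genes passed (3.47% called, 1.01% higher and 2.46% lower), 2 passed, both lower in labelled knockout. Wnt11, a Wnt ligand 363889 bases from Mogat2, averaged 68.8 in labelled knockout and 150.2 in wild type (log2 fold change -1.08 ± 0.19, limma adjusted p = 0.0181), and Parvb, an integrin-linked adaptor 108868 bases from Pnpla5, averaged 337 and 491 in the same order of groups (-0.54 ± 0.12, limma adjusted p = 0.049). In CD, BA, Epi and Adipo 0 neighbours passed, where 0%, 0.0323%, 0% and 0.638% of all genes did. Dgat2, the diacylglycerol acyltransferase of the next step, lies 36365 bases from Mogat2 and averaged 64949 in labelled knockout and 50846 in wild type in HFD (0.37, limma adjusted p = 0.286). Its log2 fold changes were 0.96 in CD, 0.60 in BA, -0.11 in Epi and -0.29 in Adipo. Pnpla3, a family member 44662 bases from Pnpla5, averaged 7948 in labelled knockout and 8956 in wild type in HFD (-0.14, limma adjusted p = 0.665). For Pnpla3 the log2 fold changes were 1.09 in CD, -0.0064 in BA, -0.17 in Epi and -0.43 in Adipo.

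The lists of pathway genes below were chosen with earlier results known, and their counts stand beside 0% of all genes called in CD, 3.47% in HFD, 0.0323% in BA, 0% in Epi and 0.638% in Adipo. At those shares a count of 0 in a short list says nothing about the list. Of 13 other acylglycerol synthesis genes 0 passed in any table, and their median log2 fold change was 0.40 in CD, -0.10 in HFD, 0.19 in BA, 0.09 in Epi and 0.15 in Adipo, beside medians over all genes of 0.11, -0.09, 0.01, -0.03 and -0.04. The acyltransferase Gpam averaged 2801 normalised reads in labelled knockout and 1731 in wild type in HFD (0.73 ± 0.19, limma adjusted p = 0.0646). Of 10 other patatin-like and lipolysis genes, 9 or 10 of which were measured per table, 0 passed, with medians of 0.44, -0.14, 0.12, 0.18 and 0.04 in the same order of tables. The lipase coactivator Abhd5 averaged 4081 in labelled knockout and 3010.1 in wild type in HFD (0.45 ± 0.14, limma adjusted p = 0.105).

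In the P450 list 2 of 17 genes passed, both in HFD, where 3.47% of all genes did. Cyp2e1, which oxidises ethanol and fatty acids, rose to 89713 normalised reads in labelled knockout, against 31572 in wild type (log2 fold change 1.54 ± 0.20, limma adjusted p = 0.00568), and Cyp2d22 fell to 389.9, against 628 (-0.67 ± 0.14, limma adjusted p = 0.0322). The list's medians were 0.11, -0.08, 0.14, 0.23 and -0.04 from CD to Adipo, beside those of all genes given above. Cyp51, a sterol demethylase, averaged 3339 in labelled knockout and 406 in wild type in CD (2.88 ± 0.50, limma adjusted p = 0.504) and 12182 and 2634 in BA (2.19 ± 0.38, limma adjusted p = 0.0806).

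Of 6 SOSS and RPA genes, partners or paralogs of Nabp1, 0 passed in any table (at most 3.47% of all genes did), with medians of 0.15, -0.24, 0.01, -0.02 and -0.35 from CD to Adipo. Its paralog Nabp2 averaged 675 normalised reads in labelled knockout and 920.2 in wild type in HFD (log2 fold change -0.43 ± 0.14, limma adjusted p = 0.124). Of 15 other Shisa and AMPA receptor genes 3 to 13 were measured per table and 0 passed, with medians of -0.14, -0.36, -0.10, 0.44 and -0.18. Neuron and Schwann cell markers, which mark the cells where Shisa6 is best known, summed to 33.8 to 79.0 in labelled knockout and 27.1 to 75.9 in wild type in HFD, and to 1405 to 2393 and 693 to 2914 in BA. In CD the sums were 61.5 to 132 in labelled knockout and 44.2 to 375 in wild type, in Epi 182 to 194 and 165 to 322, and in Adipo 63.9 to 65.4 and 48.1 to 51.7. Of 8 corepressor genes used by KRAB zinc finger proteins 0 passed, with medians of 0.17, -0.0024, -0.02, -0.07 and 0.14.

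Of 15 targets of the sterol-regulated SREBP factors 14 or 15 were measured, and 1 passed in HFD, where 3.47% of all genes did. Insig1, which retains those factors in the endoplasmic reticulum, rose to 7077 normalised reads in labelled knockout, against 2352 in wild type (log2 fold change 1.68 ± 0.28, limma adjusted p = 0.0139). Their median was 1.38 in CD, where all 14 were higher and 0 passed, as did 0 of all 15467 genes, and 0.26, 0.08, 0.35 and 0.31 in HFD, BA, Epi and Adipo. The desaturase Scd2 averaged 14386 in labelled knockout and 2963 in wild type in CD (2.56 ± 0.54, limma adjusted p = 0.504).

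Within groups, members varied together to different extents. Over 33 samples, with group means removed, the Pearson correlation of log2 values was highest for Pnpla5 with Zfp949 (0.66), Pnpla5 with Shisa6 (0.64), Mogat2 with Nabp1 (0.63) and Nabp1 with Shisa6 (0.62), and lowest for Cyp2f2 with Nabp1 (0.04). The genes most alike by that measure were Adamts15 (0.72), BC035947 (0.71) and Pcdhgc3 (0.67) for Cyp2f2, among 9846 protein-coding genes. They were Eif1a (0.84), Tuba1a (0.83) and Gm49450 (0.81) for Mogat2, and Pepd (0.83), Mcts2 (0.82) and Aacs (0.82) for Pnpla5. For Nabp1 they were Tfb1m (0.77), Abhd5 (0.73) and Mrps18b (0.72), for Shisa6 Mitf (0.72), Ctsk (0.69) and Cwc22 (0.66), and for Zfp949 Ddx42 (0.82), Rbmx (0.80) and Zfp263 (0.80). These values describe the samples, which share tables, depth and, in Epi and Adipo, the split of the labelled knockout group. The leading values were recomputed without the 2 samples in which the member lay farthest from its group mean. They were then 0.66 for Adamts15, 0.81 for Eif1a, 0.78 for Pepd, 0.64 for Tfb1m, 0.60 for Mitf and 0.81 for Ddx42.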

How the data were processed

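Messenger RNA of mouse fat and adipocytes was sequenced from stranded mRNA libraries, per the labels' protocols. The authors deposited a size-factor-scaled signal for every Ensembl transcript, that is, reads divided by 1 factor per library. The build was GRCm38.p4 and the tools DESeq 1.8.3, HTSeq 0.5.3, STAR 2.4.0k, SAMtools and bcl2fastq 2.17, per the submitters' processing notes, which give no settings. Of 100 libraries 99 were used, grouped by their titles into 33 samples; 1 column, of the Adipo table and named wild type 4, matched no sample, and the third labelled knockout sample of Adipo was not analysed here; if the 2 are the same sample is not known, which bears on the genotype labels of that table. Whole reads were recovered from 96 libraries (within 0.01 of a read).

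GENCODE M21 gave symbols and positions, and 1 transcript was taken per gene, that of highest mean among transcripts of the gene's own type. Genes with a mean of 10 or more were tested in each table on log2(value + 1) with limma 3.58.1 (trend and robust) in R 4.3.3, comparing genotypes with no covariate, and adjusted by Benjamini-Hochberg at a threshold of 0.05; the scale understates the change of low genes. Tables were normalised separately, so levels across tables are a description. edgeR 4.0.16 and DESeq2 1.42.0 on recovered reads were alternatives, as were TMM scaling, other filters and pseudocounts, the longest transcript, the replicate number as a block and each sample left out. In CD, labelled knockout 1 and 2 averaged to 1 sample was a further alternative. The fits were tested on simulated data. The 6 members, the lists and the markers were chosen with earlier results of these data known. Named genes are the members, Gps2, the 3 genes most alike to each member, the 3 nearest protein-coding genes on either side that passed or share a family with the member, and per list and table up to 4 genes that passed or the 2 of smallest p; only some of the last are printed.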

Additional observations from a re-analysis of the deposited data

Results flagged for a closer look

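Mogat2 differed in direction between tables. Every sample labelled knockout lay above the wild-type mean in CD, HFD and BA, and every one lay below it in Epi and Adipo. The log2 fold changes differed by 3.69 between CD and Epi and by 3.71 between CD and Adipo. They differed by 2.79 between HFD and Epi, by 2.81 between HFD and Adipo, by 3.53 between BA and Epi and by 3.54 between BA and Adipo. The difference between tables was not tested, since each table was normalised separately, and depot, age, diet and preparation differ between them as well. The picking used CD, HFD and BA, which favours higher values in labelled knockout there. In Epi and Adipo Mogat2 did not pass (limma adjusted p = 0.566 and 0.184), and its Epi groups overlapped. Those fold changes also rest on labels that could not be checked. No sample of the groups of 4 stood far enough from the rest to be listed here for any of the 6 genes.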

How the results depend on the processing

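In CD, HFD and BA all 326 recomputed log2 fold changes of the 6 genes kept their sign, and 324 moved by less than the spread within groups. The exceptions, Pnpla5 and Shisa6 in CD, are given above. The genes were picked as higher in labelled knockout in those tables, which favours a kept sign there. Of 186 recomputed log2 fold changes in Epi and Adipo, where the picking played no part, 6 reversed. Leaving out 1 sample gave -0.036 (without labelled knockout 1) to 1.43 for Pnpla5 in Epi. In Adipo it gave -0.47 to 2.18 for Pnpla5 and -0.74 to 2.11 for Shisa6, lowest without labelled knockout 1, and -0.83 to 0.20 for Zfp949, highest without labelled knockout 2. Shisa6 in Epi was 0.19 with edgeR and 0.18 with DESeq2. The cause was not tested.

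Counts of genes called in CD were 1 without trend or robust moderation and 922 with DESeq2, and 0 to 637 with 1 sample left out. The count of 637 came without labelled knockout 3, which leaves only the nearly alike labelled knockout 1 and 2, whose spread is small. In HFD they were 268 with the replicate number as a block and 1452 with DESeq2, and 126 to 1166 with 1 sample left out: 181, 265, 146 and 126 without labelled knockout 1, 2, 3 and 4, and 1166, 305 and 290 without wild type 1, 3 and 4. In BA the count was 2 without a filter or without moderation and 271 with DESeq2, and 0 to 9 with 1 sample left out: 9 and 1 without labelled knockout 1 and 2, and 0 without labelled knockout 3 or 4 or wild type 1, 2 or 4. In Epi it was 530 with DESeq2 and 0 to 22 with 1 sample left out (22 and 1 without labelled knockout 1 and 2). In Adipo it was 378 without a filter, 0 without moderation, 1474 with the block, 166 with edgeR and 1797 with DESeq2, and 3 to 718: 4 and 47 without labelled knockout 1 and 2, and 3, 13 and 718 without wild type 1, 2 and 3. The block fit of Adipo also left out wild type 3, which has no labelled knockout sample of its number there. TMM scaling shifted the median of all genes in CD from 0.11 to 0.01.

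Samples of the same number and opposite genotype deviated together in no table throughout (correlations from -0.57 to 0.58). With so few samples per group this cannot decide whether the numbers pair them, and the main fit took them as unpaired. With the block the log2 fold change of Nabp1 in Adipo was 1.54 (limma adjusted p = 0.0204). That fit also left out wild type 3, so the change from the main fit cannot be put down to the pairing. Few reads limit Pnpla5 and Shisa6, and 2 samples labelled knockout limit Adipo.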
